A study of Mus musculus with 4 samples.

Results

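The 9 genes described here carry bone morphogenetic protein (BMP) and transforming growth factor beta (TGF-beta) signals in endothelial cells (EC). They were taken by symbol, 9 of 16408 symbols listed over the plates, and comprise the ligands *Bmp4* and *Bmp6*, the receptors *Bmpr2* and *Acvrl1*, the coreceptor *Eng*, the inhibitory Smads *Smad6* and *Smad7*, and the target genes *Id1* and *Id3*. SORT-seq was run on aortic cells of 4 mice, with 1 plate of 384 wells per mouse and 1 sorted cell per well. It counts the 3′ ends of transcripts by unique molecular identifiers (UMI). The 2 mice labelled *Epas1* EC-KO carried floxed *Epas1* (Epas1fl/fl) with 1 *Cdh5* Cre allele (Cdh5Cre/+), and the 2 labelled *Epas1* EC-WT carried floxed *Epas1* with no Cre (*Cdh5*+/+). Per the study's methods the Cre is tamoxifen-inducible and driven by the endothelial *Cdh5* promoter, all mice received tamoxifen on 5 days from 6 weeks of age, and aortas were taken 2 weeks later, so tamoxifen and the floxed alleles are shared by both groups. *Epas1* encodes a hypoxia-inducible transcription factor, and the comparison of the labels asks what its loss from EC does to aortic EC.

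Ligands of the family bring together type II receptors, among them BMPR2, and type I receptors, among them ACVRL1 (ALK1), with endoglin (ENG) as an accessory receptor. The ligands differ in the receptors they bind, and which of these BMP4 and BMP6 use in these cells was not measured. The receptors phosphorylate receptor-activated Smads, which enter the nucleus with SMAD4 and switch on genes that include the Id genes and the inhibitory Smads, and these last feed back on the receptors. In blood vessels the pathway is known for its part in arteriovenous patterning and pulmonary vascular disease, and loss of ENG or ACVRL1 underlies hereditary haemorrhagic telangiectasia.

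Of the 9 genes, 6 had a RefSeq promoter window (GRCm38.p6, 250 bases before to 50 after the start), namely *Bmp4*, *Bmp6*, *Bmpr2*, *Eng*, *Smad6* and *Id3*. The windows were searched on both strands for short motifs. CACGTG, an E-box that holds the hypoxia core ACGTG on each strand, was in 2 of the 6 windows, those of *Bmp4* and *Bmp6*, and in 7.15% of 32851 windows of the same length. ACGTG alone was in 3 of 6 (*Bmp4*, *Bmp6* and *Smad6*) against 19.6%, and GCGTG, the other form of that core, in 3 of 6 against 32.4%. The SMAD-binding palindrome GTCTAGAC was in 1 of 6, *Smad6*, against 0.213%. The half-site CAGAC was in 3 of 6 against 49.6% and the GC-rich BMP element GGCGCC in 1 of 6 against 11.9%. CACGTG was added to the search after the ACGTG matches were seen. The stretches below are shown because the levels of both ligands were lower together in 3 of the comparisons that follow, and because the *Smad6* palindrome spans the annotated start. Capitals mark CACGTG in the ligands and GTCTAGAC in *Smad6*. A match of letters is a description of the sequence and no binding was measured.
*Bmp4*, upstream 250 bases: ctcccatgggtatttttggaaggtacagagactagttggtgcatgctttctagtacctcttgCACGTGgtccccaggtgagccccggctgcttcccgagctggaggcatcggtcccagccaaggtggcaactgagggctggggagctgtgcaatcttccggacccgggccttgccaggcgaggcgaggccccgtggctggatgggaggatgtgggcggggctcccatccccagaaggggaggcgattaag
*Bmp6*, around CACGTG: ttcagggcagcgCACGTGtgcagactgcga
*Smad6*, around the start: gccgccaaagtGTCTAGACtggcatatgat
The *Bmp4* stretch is chr14:46390670-46390919 on the minus strand, upstream of the gene, and its CACGTG begins 188 bases before the start. The *Bmp6* stretch is chr13:38345577-38345606 on the plus strand, where CACGTG begins 127 bases before the RefSeq start, in sequence that the GENCODE M21 annotation gives as exon. The *Smad6* stretch is chr9:64022045-64022074 on the minus strand, and its palindrome begins 4 bases before the start.

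From the 1536 wells, 441 were kept as cells, 157 and 98 from EC-KO mice 1 and 2 and 114 and 72 from EC-WT mice 1 and 2. Of these, 21 had smooth muscle genes at 1% or more of their UMIs and are called smooth muscle-like (11, 5, 3 and 2 in the same order), which left 420 EC with 549570 to 1009034 UMIs per mouse. *Pecam1*, which encodes the sorted antigen CD31, had a UMI in 99.3% of the EC, whereas *Ptprc*, which encodes CD45, had 1 UMI over all of them together. *Epas1* was at 3093 and 3342 CPM (UMIs per 1000000 nuclear UMIs) in EC-KO mice 1 and 2 and at 3334 and 2415 in EC-WT mice 1 and 2 (log2 fold change EC-KO over EC-WT 0.19, standard error 0.21, edgeR adjusted *P* = 0.951). Counts of 3′ ends do not test the deletion. The study counted more analysed cells from EC-WT than from EC-KO mice, and more of the wells kept here carried the EC-KO label, so an exchange of the labels in the deposit was not tested and the directions below are those of the labels. In the names under which the plates were deposited, EC-KO mouse 2 and EC-WT mouse 1 share a code, and the others have 1 each. The code was taken as that of a sequencing flow cell, which the sample titles do not state. These 2 are called below the mice of the shared flow cell.

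Levels of the ligands were close between the labels and varied more between mice of one label. *Bmp4*, a secreted BMP ligand made by aortic EC, lies on chromosome 14 of GRCm38 (46383520 to 46390669, minus strand). It was at 1858 and 1584 CPM in EC-KO mice 1 and 2 and at 1450.0 and 2325 CPM in EC-WT mice 1 and 2. The EC-WT mice held both the lowest and the highest value, so the groups overlapped. Its log2 fold change was −0.09 (standard error 0.23, edgeR adjusted *P* = 0.988). *Bmp6*, a ligand best known from liver endothelium for the control of iron through hepcidin, lies on chromosome 13 (38345107 to 38500302, plus strand). It was at 88.2 and 151 CPM in the EC-KO mice and at 137 and 118 CPM in the EC-WT mice, from 65 to 114 UMIs per mouse. The groups overlapped again, with a log2 fold change of −0.09 (standard error 0.26, edgeR adjusted *P* = 0.992).

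Among the receptors, *Bmpr2* (chromosome 1, 59763400 to 59879014, plus strand) is the type II receptor for BMP ligands. It was at 687 and 603 CPM in the EC-KO mice and 596 and 557 CPM in the EC-WT mice. Both EC-KO mice were above both EC-WT mice, by a log2 fold change of 0.20 (standard error 0.19, edgeR adjusted *P* = 0.947). It was 0.068 without EC-KO mouse 1, 0.13 without EC-WT mouse 2, 0.32 without EC-KO mouse 2, 0.017 between the mice of the shared flow cell and 0.45 with read counts. *Acvrl1* (chromosome 15, 101128522 to 101145336, plus strand), a type I receptor found mainly on EC, was at 215 and 279 CPM in the EC-KO mice and 260.4 and 275 CPM in the EC-WT mice, with the groups overlapping (log2 fold change −0.09, standard error 0.20). *Eng* (chromosome 2, 32646595 to 32682669, plus strand) was at 363 and 379 CPM in the EC-KO mice against 407 and 382 CPM in the EC-WT mice. The groups did not overlap, yet they differed by only −0.06 on the log2 scale (standard error 0.18, edgeR adjusted *P* = 0.992).

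The inhibitory Smads were higher in both EC-KO mice than in either EC-WT mouse, by differences that did not pass the test. *Smad6*, which blocks BMP receptor signals in particular, lies on chromosome 9 (63953076 to 64022059, minus strand) and was at 254 and 245 CPM in the EC-KO mice against 229 and 151 CPM in the EC-WT mice (log2 fold change 0.42, standard error 0.22, edgeR adjusted *P* = 0.880). *Smad7*, which acts on both BMP and TGF-beta receptors, lies on chromosome 18 (75367529 to 75395935, plus strand). It was at 271 and 314 CPM in the EC-KO mice and at 214 and 151 CPM in the EC-WT mice. Its log2 fold change of 0.70 was the highest of the 9 (standard error 0.22). *Smad7* was also the only one with an unadjusted edgeR *P* under 0.05 (0.00562, adjusted 0.843). For both Smads the lowest value was that of EC-WT mouse 2. With EC-WT mouse 1 left out, the log2 fold change of *Smad7* was 1.00 and its edgeR adjusted *P* 0.0447, in a fit whose EC-WT arm is 1 mouse and is assumed to vary like the EC-KO mice. With the other mice left out in turn it was no lower than 0.46. *Smad6* was at 0.14 without EC-WT mouse 2, at 0.78 without EC-WT mouse 1 and at 0.096 between the mice of the shared flow cell. Read counts in place of UMIs gave 0.81 for *Smad6* and 1.58 for *Smad7*. Marker lists of other cells also moved with the labels in the EC. The smooth muscle list was at 560 and 930 CPM in the EC-KO and 206 and 328 CPM in the EC-WT mice, and the fibroblast list at 3294 and 2247 CPM against 1595 and 1858 CPM. Without cells of at least 3 UMIs of *Dcn*, a fibroblast gene, *Smad7* was at 0.68 and *Smad6* at 0.30, and the part of the smooth muscle list was not tested. Over the 21 alternatives that gave *Smad7* a value, its direction was EC-KO higher in each.

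The share of EC with a *Smad7* UMI gave the same order of the mice as groups. It was 64.4% (94 cells, 95% exact interval 56.0% to 72.1%) and 73.1% (68 cells, 62.9% to 81.8%) in EC-KO mice 1 and 2, and 46.8% (52 cells, 37.3% to 56.6%) and 51.4% (36 cells, 39.2% to 63.6%) in EC-WT mice 1 and 2. The intervals of EC-KO mouse 2 lay above those of EC-WT mouse 1 but overlapped with those of EC-WT mouse 2. The median depth ran from 3821 UMIs in EC-WT mouse 1 to 7419 in EC-KO mouse 2, and with every cell thinned to 1000 UMIs the shares were 25.3%, 29.0%, 20.7% and 17.1%. Thinned, the groups differed by 8.26 percentage points (27.2% ± 2.61 against 18.9% ± 2.53, SD, n = 2 each, exact permutation over mice, two-sided, *P* = 0.333, the lowest possible with 2 mice per label). In the smooth muscle-like wells, with a median of 5263 UMIs against 5618 in EC, *Smad7* had a UMI in 47.6% of the wells unthinned and in 9.52% thinned. In the 480 wells of plate rows L to *P*, none of which was kept, it had a UMI in 0.417% at a median of 47 UMIs per well. None of the other 8 genes differed between the labels in its thinned share at a *P* below 0.667 in the same exact test. Unthinned, *Smad6* (57.5% and 61.3% against 54.1% and 52.9%) and *Id3* (83.6% and 92.5% against 73.9% and 75.7%) also did not overlap between the labels (exact permutation *P* = 0.333 each), while the thinned shares of both overlapped. The median depth itself did not overlap, at 5964.5 and 7419 UMIs in the EC-KO mice against 3821 and 5752.5 in the EC-WT mice.

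For the target genes the groups overlapped. *Id1*, a helix-loop-helix inhibitor and a direct transcriptional target of BMP signals, lies on chromosome 2 (152736251 to 152737410, plus strand). It was at 149 and 347 CPM in EC-KO mice 1 and 2 and at 200 and 116 CPM in EC-WT mice 1 and 2. EC-KO mouse 1 lay below EC-WT mouse 1, so the groups overlapped. The log2 fold change was 0.65 (standard error 0.33, edgeR adjusted *P* = 0.877). It was −0.03 without EC-KO mouse 2, and it passed the threshold without EC-KO mouse 1 (1.12, edgeR adjusted *P* = 0.0356) and without EC-WT mouse 1 (1.12, edgeR adjusted *P* = 0.0251), in fits where 1 arm is a single mouse assumed to vary like the other group. The list of 10 dissociation and stress genes, among them *Fos*, *Jun* and *Egr1*, was likewise highest in EC-KO mouse 2, at 1674 CPM against 943 to 1280 CPM in the others, and its part in the level of *Id1* was not tested. *Id3*, a close relative of *Id1* with the same kind of action, lies on chromosome 4 (136143497 to 136145755, plus strand). It was at 576 and 691 CPM in the EC-KO mice and 605 and 495 CPM in the EC-WT mice, with overlapping groups (log2 fold change 0.23, standard error 0.19). It was 0.13 without EC-KO mouse 2, 0.075 without EC-WT mouse 2, 0.41 without EC-WT mouse 1, 0.52 with cells thinned and 0.054 with read counts.

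**Figure D1:**
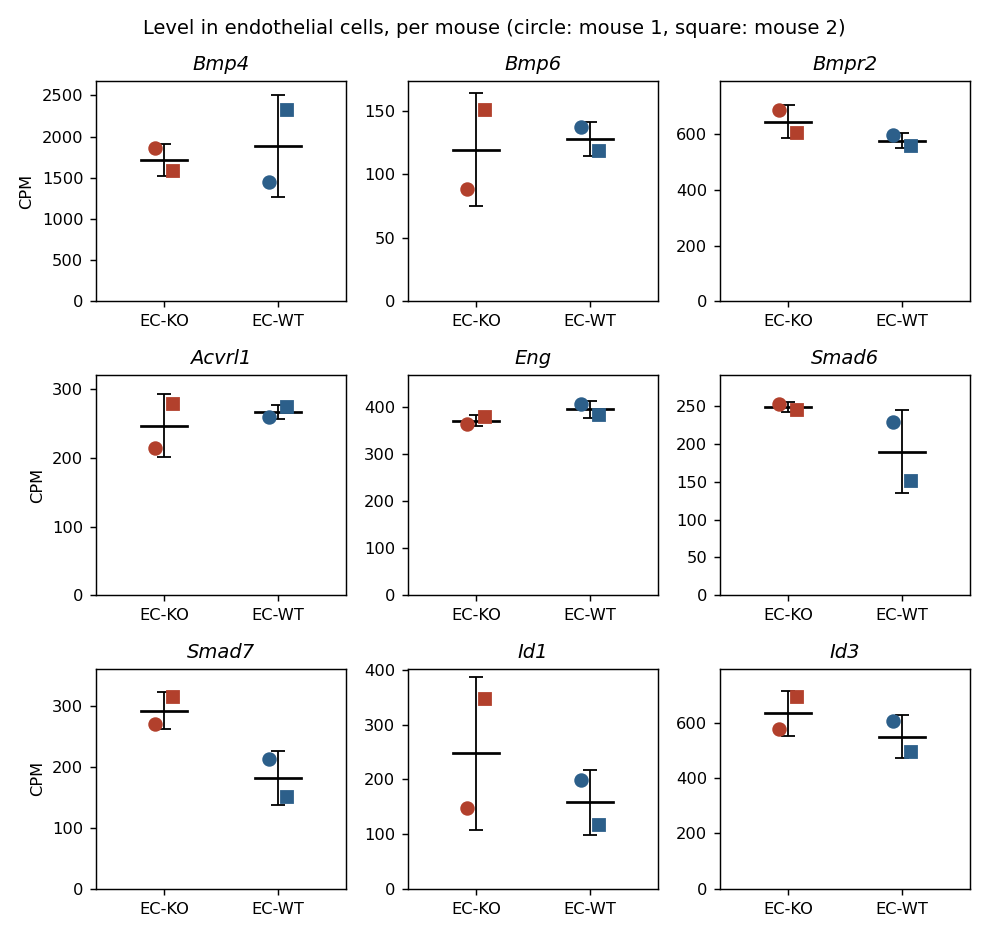
Each panel plots the level of 1 gene in CPM (linear axis from 0) in the EC of each mouse, with circles for mouse 1, squares for mouse 2, a line for the group mean and bars for the SD (n = 2). *Smad7* ran from 151 CPM in EC-WT mouse 2 to 314 CPM in EC-KO mouse 2 without overlap of the groups, whereas *Bmp4* and *Id1* overlapped.

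None of the 9 genes, all of which were tested, was called between the labels at an adjusted *P* of 0.05. Nor was any of the 8128 genes tested with edgeR (0.0%), where 455 had an unadjusted *P* under 0.05, or with DESeq2 (0 called). The mice of the groups did not overlap for 4 of the 9 genes (*Bmpr2*, *Eng*, *Smad6* and *Smad7*), and they did not overlap for 35.4% of all genes tested. The median log2 fold change was 0.20 over the 9 genes and 0.00 over all genes. With 2 mice per label, the SD within at least 1 label was larger than the difference between the label means for *Bmp4*, *Bmp6*, *Acvrl1* and *Id1*. This does not place the other genes beyond the spread between mice, because the SD of 2 mice is smaller than the gap between them.

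Both ligands, *Bmpr2* and *Eng* were lower in the smooth muscle-like wells than in EC. In these wells the endothelial marker list summed to 1941 to 5509 CPM, against 10972 to 14494 CPM in EC, and the smooth muscle list to 32752 to 65275 CPM, against 206 to 930 CPM. The fibroblast list was also higher (2889 to 12771 CPM against 1595 to 3294 CPM), and its part in the differences was not tested. *Bmp4* was at 851, 73.0, 131 and 545 CPM in the smooth muscle-like wells of EC-KO mice 1 and 2 and EC-WT mice 1 and 2, below its level in the EC of the same mouse in 4 of 4. Its log2 fold change was −2.64 (standard error 0.52, edgeR adjusted *P* = 1.7e-05). *Bmp6* had 3 UMIs in all these wells, a level 8.03 times lower than in EC (95% counting interval 2.73 to 39.1), and its log2 fold change of −2.90 passed the test (standard error 0.86, edgeR adjusted *P* = 0.0124). *Eng* was at 125, 115, 0 and 60.5 CPM, lower in 4 of 4 mice (log2 fold change −1.93, standard error 0.54, edgeR adjusted *P* = 0.00665). *Bmpr2* was at 175, 240, 131 and 484 CPM and fell by 1.42 on the log2 scale (standard error 0.48, edgeR adjusted *P* = 0.0346). Thus 4 of the 9 genes were called, each of them lower, where 9.38% of 5234 genes were called in either direction, 5.73% lower and 3.65% higher.

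For the other 5 genes the smooth muscle-like wells did not differ from EC by the test. *Acvrl1* had a log2 fold change of −1.44 (standard error 0.56, edgeR adjusted *P* = 0.0840), from 0 to 182 CPM per mouse. *Smad6* and *Smad7* had log2 fold changes of −1.01 and −1.17, with standard errors of 0.54 and 0.55. *Id1* and *Id3* were at −0.15 and 0.34, and the summed level of *Id3* was 875 CPM in the smooth muscle-like wells and 597 CPM in EC. The median log2 fold change of all genes tested was −0.25. Of the calls, that of *Bmp4* held in all 9 alternatives, whereas those of *Bmp6*, *Bmpr2* and *Eng* were lost when either EC-KO mouse was left out, at log2 fold changes of −3.01 and −2.41, −1.30 and −1.57, and −2.37 and −2.23. The call of *Eng* was also lost with cells thinned (−0.53, edgeR adjusted *P* = 0.711), that of *Bmp6* with the class limit at 0.5% (−1.29, edgeR adjusted *P* = 0.305), and that of *Bmpr2* with it at 0.5% (−1.17) or 2% (−1.36). The unkept wells of rows L to P held 28791 UMIs, with *Bmp4* at 1563 CPM against 1786 CPM over all EC, and the part of such free RNA in the smooth muscle-like wells was not tested.

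The sort held 24 EC with at least 3 UMIs of *Cd36* and *Fabp4* together, at 0.2% or more of the cell's UMIs (6, 3, 8 and 7 cells in EC-KO mice 1 and 2 and EC-WT mice 1 and 2). CD36 takes up fatty acids and FABP4 binds them inside the cell, and fatty acid uptake by EC is the subject of the study. In these cells the ligands were lower and the coreceptor higher than in the 396 other EC. *Bmp4* was at 434, 376, 909 and 583 CPM in the *Cd36*/*Fabp4* cells of EC-KO mice 1 and 2 and EC-WT mice 1 and 2, and at 1905, 1628, 1479 and 2460.1 CPM in the other EC. All 4 *Cd36*/*Fabp4* values lay below all 4 others (log2 fold change −1.86, standard error 0.24, edgeR adjusted *P* = 2.9e-08). *Bmp6* had 0 UMIs in 3 of the mice and 1 in EC-WT mouse 2, against 355 UMIs in the other EC. Its summed level was 16.5 times lower (95% counting interval 2.94 to 654), and the difference passed the test (edgeR adjusted *P* = 0.00195).

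*Eng* moved the other way. It was at 993, 1542, 1242 and 862 CPM in the *Cd36*/*Fabp4* cells and at 342, 336, 362 and 345 CPM in the other EC. Every *Cd36*/*Fabp4* value was above every other value, the summed level was 3.27 times higher, and the log2 fold change was 1.55 (standard error 0.23, edgeR adjusted *P* = 5.7e-07). Of the receptors, *Bmpr2* was at 682, 527, 606 and 558 CPM in the *Cd36*/*Fabp4* cells and at 687, 605, 595 and 557 CPM in the other EC, and *Acvrl1* at 186, 338, 182 and 380.4 CPM against 216, 277, 265 and 267 CPM. Neither was called, with log2 fold changes of −0.20 (standard error 0.24) and −0.10 (standard error 0.34).

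The inhibitory Smads were lower in the *Cd36*/*Fabp4* cells of 3 of 4 mice. *Smad6* was at 62.0, 301, 30.3 and 50.7 CPM against 260.0, 243, 240.0 and 159 CPM in the other EC, from 13 UMIs in the *Cd36*/*Fabp4* cells in all. Its log2 fold change of −1.36 did not pass (standard error 0.47, edgeR adjusted *P* = 0.0605), and without EC-KO mouse 2, the mouse in which it was higher, it was −2.31 (edgeR adjusted *P* = 0.0194). Without each other mouse it lay between −1.29 and −0.98 and did not pass, nor did it with DESeq2 (adjusted *P* = 0.206), whereas with no filter on low counts it did (−1.73, edgeR adjusted *P* = 0.0130). The level in EC-KO mouse 2 rests on 8 UMIs in 1 of 3 cells. *Smad7* was at 93.1, 414, 30.3 and 101.5 CPM against 276, 310.2, 224 and 155 CPM (log2 fold change −0.93, standard error 0.43, edgeR adjusted *P* = 0.208). It was −1.62 without EC-KO mouse 2 and −0.55 without EC-WT mouse 1, and its sign turned with cells thinned to 1000 UMIs (0.39). *Id1* had a log2 fold change of 0.55 and was higher in 4 of 4 mice (standard error 0.35, edgeR adjusted *P* = 0.4496), and *Id3* was at −0.25 (standard error 0.25). In all, 3 of the 9 genes were called, where 8.67% of 4766 genes were, 5.39% lower and 3.27% higher. The median log2 fold change of all genes tested was −0.23, so that the values of *Bmpr2*, *Acvrl1* and *Id3* lay near that of the median gene.

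**Figure D2:**
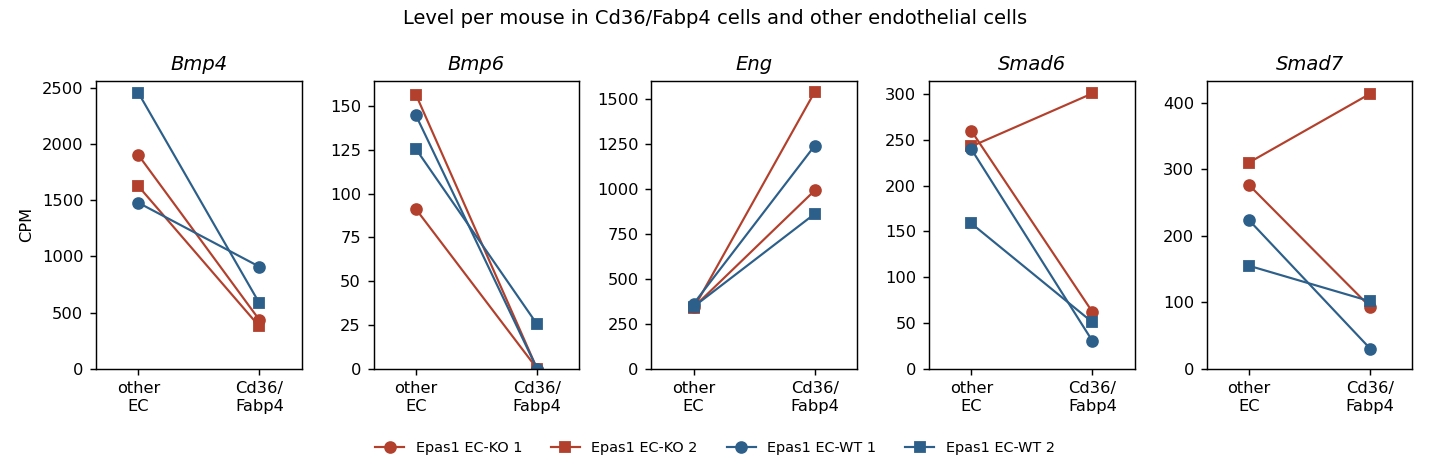
Each panel plots the level of 1 gene in CPM (linear axis from 0) in the other EC (left) and the *Cd36*/*Fabp4* cells (right), with a line for each mouse, red for EC-KO and blue for EC-WT. Lines for *Bmp4* and *Bmp6* go down and those for *Eng* go up in all 4 mice, whereas *Smad6* (8 UMIs in 1 cell) and *Smad7* go up in EC-KO mouse 2 and down in the others.

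The *Cd36*/*Fabp4* cells kept their endothelial markers (11787 to 17348 CPM summed, against 10945 to 14470 CPM in the other EC), and their fibroblast list was lower (242 to 564 CPM against 1668 to 3395 CPM). The list of 7 lymphatic genes, 4 of them listed on the plates, was at 0 to 564 CPM in the *Cd36*/*Fabp4* cells, the highest value being that of EC-KO mouse 2, against 49.4 to 74.5 CPM in the other EC, and *Prox1*, its defining gene, was not listed. The smooth muscle list was at 465, 1504, 333 and 685 CPM in the *Cd36*/*Fabp4* cells and at 563, 909, 199 and 300 CPM in the other EC, higher in 3 of 4 mice. The median mitochondrial share was 10.1% against 7.68%, and higher in 3 of 4 mice. Whether these measures have a part in the differences was not tested. Thinned to 1000 UMIs per cell, *Bmp4* kept its call (log2 fold change −2.01) while *Eng* did not (0.89, edgeR adjusted *P* = 0.260). With the limit lowered to 0.1% of UMIs, the log2 fold change of *Bmp6* was −0.76 and its call was lost.

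EC also differed in the balance of genes known to respond to blood flow, and the ligands followed it. Within each mouse, EC with at least 2000 UMIs were ordered by *Klf2* and *Klf4*, transcription factors that high shear stress induces, over *Edn1*, *Thbs1* and *Cyr61*, and split into 3 equal sets, of which the highest (Klf-high) was compared with the lowest (Klf-low; 118 against 118 cells over 4 mice, with 82 of all 357 cells within 0.5 of a limit on the log2 scale). Each set is a range of a score and not a cell type. Over all 4 mice, *Klf2* was at 1501 CPM in the Klf-high and 557 CPM in the Klf-low cells, and *Klf4* at 1142 and 364 CPM. *Edn1* was at 2.69 and 628 CPM, *Cyr61* at 13.5 and 971 CPM and *Thbs1* at 9.42 and 358 CPM. The sets were thus further apart in the genes of the denominator than in *Klf2* and *Klf4*. The limits differed between mice, so the names hold within a mouse only. *Klf2* was at 971 CPM in the Klf-low cells of EC-KO mouse 2 and at 799 CPM in the Klf-high cells of EC-WT mouse 2. *Klf4* did not overlap, at up to 608 CPM in the Klf-low and from 924 CPM in the Klf-high cells. *Bmp4* was at 738, 583, 945 and 840.4 CPM in the Klf-high cells of EC-KO mice 1 and 2 and EC-WT mice 1 and 2, and at 3222, 3088, 2282 and 3845 CPM in the Klf-low cells. The sets did not overlap, and the summed level was 4.07 times lower in the Klf-high cells. *Bmp4* is given here with no test, because earlier results of these data had already placed it with *Edn1*, *Thbs1* and *Cyr61*.

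*Bmp6* followed the same order. It was at 47.0, 84.7, 68.5 and 49.9 CPM in the Klf-high cells and at 155, 271, 190 and 179 CPM in the Klf-low cells, without overlap. Its log2 fold change of −1.72 passed the test (standard error 0.27, edgeR adjusted *P* = 3.1e-05) and lay between −1.76 and −1.69 with each mouse left out in turn. *Id1* went the other way, at 260.5, 468, 233 and 150 CPM in the Klf-high cells against 37.3, 196, 232 and 71.5 CPM in the Klf-low cells. It was higher in the Klf-high cells of 3 mice, while in EC-WT mouse 1 the sets were level. The log2 fold change of 1.14 passed with edgeR (standard error 0.27, adjusted *P* = 0.00648) but not with DESeq2 (1.19, adjusted *P* = 0.0501), nor without EC-KO mouse 1 (0.71, edgeR adjusted *P* = 0.342) or EC-KO mouse 2 (1.11, edgeR adjusted *P* = 0.258).

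The receptors and the other genes differed less between the sets. *Acvrl1* was higher in the Klf-high cells of 4 of 4 mice, at 275, 314, 288 and 275 CPM against 134, 208, 251 and 243 CPM, but did not pass (log2 fold change 0.46, standard error 0.20, edgeR adjusted *P* = 0.265). *Eng* was lower in 3 of 4, at 232, 309, 363 and 483 CPM against 432, 449, 564 and 450.3 CPM (log2 fold change −0.58, standard error 0.18, edgeR adjusted *P* = 0.0537), and without EC-WT mouse 2, where it was higher, it was at −0.76 (edgeR adjusted *P* = 0.0118). That was the 1 of 9 alternatives that passed, the others running up to −0.094 with cells thinned (edgeR adjusted *P* = 0.919). *Bmpr2*, *Smad6*, *Smad7* and *Id3* had log2 fold changes from −0.39 to −0.12, none of them called. Of the 8 genes other than *Bmp4*, 2 were called (*Bmp6* lower and *Id1* higher), where 4.81% of 3802 genes were, 2.79% lower and 2.03% higher.

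**Figure D3:**
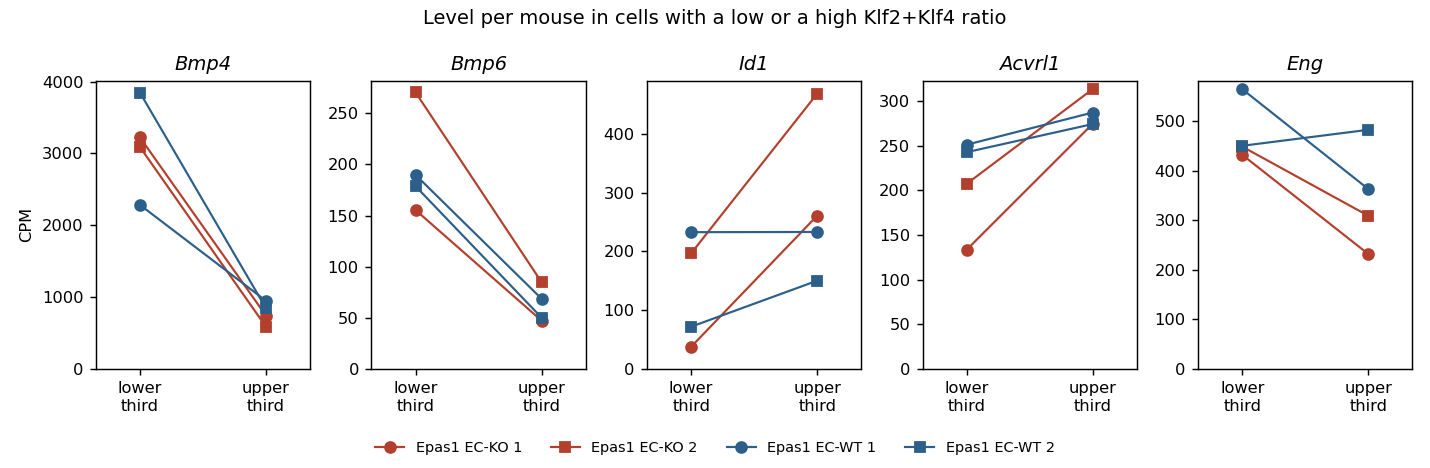
Each panel plots the level of 1 gene in CPM (linear axis from 0) in Klf-low (left, labelled lower) and Klf-high (right, labelled upper) EC, set by the ratio of *Klf2* and *Klf4* to *Edn1*, *Thbs1* and *Cyr61*, with a line for each mouse. *Bmp4* and *Bmp6* go down in all 4 mice, and *Id1* goes up in 3 and is level in EC-WT mouse 1 (232 and 233 CPM).

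Other measures moved with the sets, and their part in these differences was not tested. The stress list was higher in the Klf-high cells of 4 of 4 mice (1020, 2381, 1588 and 1082 CPM against 649, 1390, 901 and 708 CPM). So was the endothelial list (11396, 15160, 14808 and 13721 CPM against 9939, 13674, 12547 and 10778 CPM). The smooth muscle list was lower except in EC-WT mouse 2 (478, 822, 137 and 424 CPM against 861, 1038, 299 and 336 CPM). The fibroblast list was at 2514 CPM in the Klf-high and 5689 CPM in the Klf-low cells of EC-KO mouse 1, and between 1523 and 2458 CPM in the others. The list of 10 lipid-handling genes, which includes *Cd36* and *Fabp4*, was at 3154 CPM in the Klf-high and 572 CPM in the Klf-low cells of EC-WT mouse 2, where *Eng* was higher, and at 205 against 1433 CPM in EC-WT mouse 1. The median mitochondrial share was 8.25% against 4.59% in EC-KO mouse 1. The median cell had 4990 UMIs in the Klf-high cells and 7106 in the Klf-low cells. Without cells of at least 3 UMIs of *Dcn*, a fibroblast gene, *Bmp6* was at −1.48 (edgeR adjusted *P* = 6.4e-04) and *Id1* at 0.98 (edgeR adjusted *P* = 0.0125). Thinned to 1000 UMIs per cell, 456 genes could be tested, and *Bmp6* and *Id1* were not among them.

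**Figure D4:**
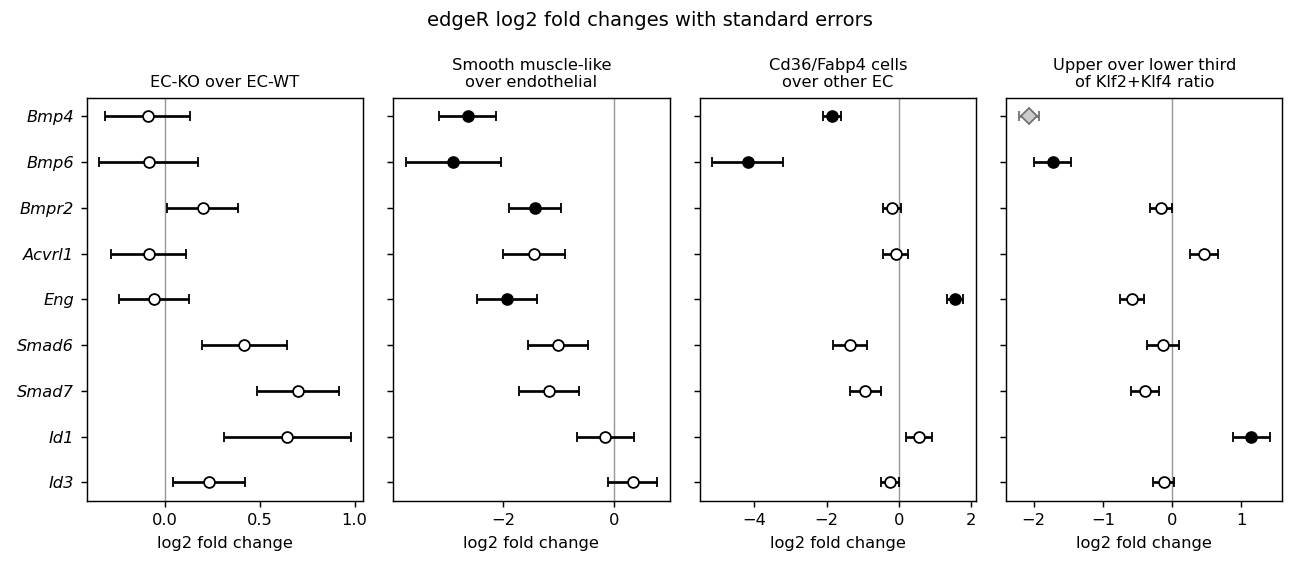
Log2 fold changes of the 9 genes from edgeR with their standard errors, for EC-KO over EC-WT, smooth muscle-like wells over EC, *Cd36*/*Fabp4* cells over other EC, and Klf-high over Klf-low cells (each panel has its own axis). Filled circles passed an adjusted *P* of 0.05, open circles did not, and the grey diamond of *Bmp4* in the last panel is a description with no test.

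*Bmp4* and *Bmp6* were also the most alike of the 36 pairs of the 9 genes across cells. The mean within-mouse Pearson correlation of their log-normalized levels was 0.31, from 0.21 to 0.43 over the 4 mice, and 0.17 with cells thinned to 1000 UMIs. Over the pairs the median was 0.08, and 13 pairs were above 0.1. The lowest were *Bmp4* with *Id1* (−0.16, from −0.23 to 0.00) and *Bmp6* with *Id1* (−0.10, from −0.18 to −0.02). *Id1* and *Id3* had a mean of 0.16, and 0.04 thinned. These are descriptions over 420 cells of 4 libraries that share depth and free RNA, and apart from *Bmp4* with *Bmp6* none lay further than 0.16 from 0.

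**Figure D5:**
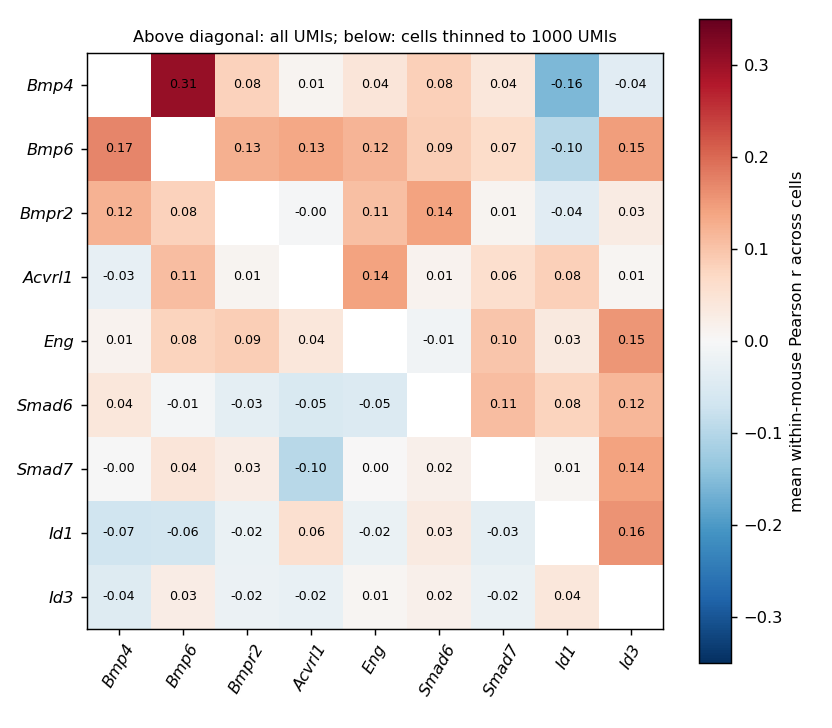
Mean within-mouse Pearson correlation across EC of each pair of the 9 genes, with all UMIs above the diagonal and with cells thinned to 1000 UMIs below it (red above 0, blue below 0). The darkest square is that of *Bmp4* with *Bmp6* (0.31 with all UMIs and 0.17 thinned).

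Among the 2481 genes found in at least 25% of the EC of each mouse, the 3 most like *Bmp4* were *Edn1*, the gene of endothelin-1 (0.45), *Apoe*, an apolipoprotein gene (0.44), and *Tm4sf1*, a membrane protein gene (0.40). *Bmp6* was most like *Bmp4*, *Apoe* (0.29) and *Hexa* (0.27). *Id1* was most like *Hspb1* (0.27), which encodes a small heat shock protein, *Klf4* (0.24) and *Dusp1* (0.21), a phosphatase gene of the early stress response. *Eng* was most like *Plvap* (0.30), a gene of endothelial diaphragms, *Bsg* (0.28) and *Mir5109* (0.27). For *Bmpr2* these were *Mir5109* (0.28), *Ptprb* (0.26) and *Sel1l* (0.25), and for *Acvrl1* they were *Plec* (0.30), *Ctsd* (0.27) and *Atp1b3* (0.26). *Smad6* was most like *Shroom3* (0.23), *Smpdl3a* (0.22) and *Cpq* (0.22). *Smad7* was most like *Cyb561* (0.24), *Kank2* (0.23) and *Osbp* (0.23), and *Id3* most like *Myl12a* (0.28), *Rps23* (0.24) and *Rplp1* (0.24). These values are with all UMIs, and each was lower with cells thinned. Thinned, *Bmp4* was at 0.29 with *Edn1*, 0.36 with *Apoe* and 0.23 with *Tm4sf1*. The thinned values of the other genes ran from 0.02 (*Smad7* with *Osbp*) to 0.17 (*Smad6* with *Shroom3*).

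*Bmp4* had the highest Fano factor of the 9 genes over cells, a measure that was not adjusted for its higher level. With cells thinned to 1000 UMIs, the Fano factor of *Bmp4* (variance over mean, 1 for counting noise alone) was 2.87 and 4.48 in the EC-KO mice and 2.02 and 2.93 in the EC-WT mice, while those of the other 8 genes lay between 0.91 and 1.73. By another measure it did not stand apart. The tenth of cells with the most *Bmp4* UMIs held 39.3% to 57.2% of them per mouse. For the other 8 genes this ran from 29.9% (*Bmpr2*) to 72.7% (*Bmp6*). A *Bmp4* UMI was found in 86.5% to 100% of the EC of each mouse and a *Bmp6* UMI in 30.6% to 43.0%. In the smooth muscle-like wells these shares were 57.1% and 14.3%.

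Of the other genes of the pathway, a list of 65 was examined, 61 of them listed on the plates. Between the labels 37 could be tested, and none was called, in any role. The most abundant of each role, in CPM over EC-KO mice 1 and 2 and EC-WT mice 1 and 2, were as follows. *Mgp*, a matrix protein that binds BMP ligands, was at 6030, 8366, 9020 and 5326 CPM. *Fkbp1a*, which encodes FKBP12, a protein that holds type I receptors inactive, was at 963, 1135, 1221 and 1401 CPM. Both EC-KO mice lay below both EC-WT mice for *Fkbp1a*, where the groups did not overlap for 35.4% of all genes tested. *Col4a1*, a collagen gene taken as a TGF-beta target, was at 458, 418, 410.1 and 608 CPM. *Acvr1*, a type I receptor gene, was at 207, 315, 253 and 202 CPM, and *Tgfbr2*, the type II receptor gene for TGF-beta, at 214, 180.1, 215 and 224 CPM. The groups did not overlap for *Tgfbr2* either, with both EC-KO mice lower. *Smad4* was at 79.3, 94.0, 79.5 and 41.9 CPM and *Tgfbr3*, a coreceptor gene, at 47.6, 58.3, 40.5 and 61.9 CPM. The most abundant further ligand was *Bmp2*, and it came from 1 mouse.

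*Bmp2* had 109 UMIs in EC-WT mouse 2 (198 CPM) and 1 UMI in each other mouse. The 109 UMIs were in 7 cells, with 56 in the highest and 33 in the next. Its group mean therefore describes a few cells of 1 mouse.

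In the smooth muscle-like wells, 8 of the 32 further genes tested were higher and 1 lower, where 3.65% of all genes tested were higher and 5.73% lower. The ligand genes *Tgfb2* and *Tgfb3* were higher (log2 fold changes of 1.99 and 4.59), each in 4 of 4 mice. *Bmp2* was called higher (2.90) but was higher in the EC-KO mice alone. It was at 87.6, 104, 0 and 60.5 CPM in these wells, against 0.991, 1.32, 1.56 and 198 CPM in the EC of the same mice. The extracellular regulators *Ltbp1* (4.66) and *Twsg1* (1.88) and the targets *Ctgf* (4.25) and *Col4a2* (1.88) were among those higher too, whereas *Ltbp4*, which tethers latent TGF-beta to the matrix, was lower (−1.48). The edgeR adjusted *P* of the genes named here ran from 1.3e-15 for *Ltbp1* to 0.0224 for *Tgfb2*.

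In the *Cd36*/*Fabp4* cells, 11 of the 28 further genes tested were lower and 1 higher, where 5.39% of all genes tested were lower and 3.27% higher. Of the 6 extracellular regulators tested, 5 were lower, namely *Fstl1* (−2.08), *Ltbp3* (−2.28), *Ltbp4* (−1.11), *Mgp* (−1.29) and *Thbs1* (−3.65). *Mgp*, as an example, was at 2544 to 4287 CPM in the *Cd36*/*Fabp4* cells of the 4 mice and at 5529.8 to 9294 CPM in the other EC. Of the 3 further type I receptor genes tested, *Bmpr1a* and *Acvr1* were lower. *Bmpr1a*, a receptor for BMP2 and BMP4, had 1 UMI in the *Cd36*/*Fabp4* cells against 449 in the other EC, a summed level 20.9 times lower (95% counting interval 3.73 to 826). The inhibitors *Pmepa1* (−1.59) and *Skil* (−1.58) were lower. Of the targets, *Gja4*, a connexin gene of arterial EC, had 3 UMIs, a level 14.1 times lower (95% counting interval 4.81 to 68.6). *Hey2*, a Notch and BMP target also known from arteries, had 0 UMIs against 474 in the other EC. It was at least 5.95 times lower by the 95% counting interval, and 7.34 times lower against 3 UMIs over the *Cd36*/*Fabp4* cells. *Col4a2* was higher (1.29). The median log2 fold change of the 28 was −0.78, against −0.23 over all genes tested.

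Between Klf-high and Klf-low cells, 5 of the 24 further genes tested were lower in the Klf-high cells and none was higher, where 2.79% of all genes tested were lower and 2.03% higher. The 5 include *Thbs1*, whose direction was set by its use in ordering the cells, and the others were *Ctgf* (−3.80), *Gja4* (−0.96), *Fstl1* (−0.59) and *Ltbp4* (−0.51). *Ctgf*, a target of TGF-beta and of mechanical signals, was at 6.85 to 14.5 CPM in the Klf-high and 61.7 to 245 CPM in the Klf-low cells. None of the receptor-activated Smads, receptors or inhibitors was called. The median log2 fold change of the 24 was −0.22, against −0.01 over all genes tested.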

How the data were processed

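Cells sorted as CD31+ CD45- TO-PRO-3- from 4 mouse aortas were processed by SORT-seq, a plate form of CEL-Seq2. Submitters' processing notes name BWA 0.7.15, Seurat and the builds GRCm38 and mm10. Per plate the authors deposited UMI counts, read counts and expected counts of transcripts (UMI counts corrected for 4096 identifiers), for all wells and without normalization. Read counts and expected counts, rounded after summing, served as alternatives only. The plates held 910699 to 1475546 UMIs.

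Wells with at least 1000 UMIs outside spike-ins and mitochondrial genes and at most 25% mitochondrial UMIs were kept. UMIs were summed per mouse and class and tested with edgeR 4.0.16 in R 4.3.3 (TMM, filterByExpr, quasi-likelihood) over all genes, Benjamini-Hochberg adjusted, at 0.05. DESeq2 1.42.0 was an alternative, and class comparisons had the mouse as a block. Nothing in the labels pairs the mice. CPM are UMIs per 1000000 nuclear UMIs. Correlations used the natural log of 1 plus UMIs per 10000. Ratios within mice in the closing section had 0.5 UMIs added. Intervals are exact (95%) and, like the 3 UMIs taken as the limit of a count of 0, cover counting error only. Doublets were not called; an alternative left out cells over 3 times their plate's median. Smooth muscle-like wells and *Cd36*/*Fabp4* cells were set by thresholds, not by clusters. On simulated counts with 200 genes changed by 2 (log2), 194, 123, 134 and 197 were recovered in the genotype, smooth muscle-like, *Cd36*/*Fabp4* and Klf comparisons, with 7841, 4699, 4233 and 3583 genes. In the same order, 4, 3, 8 and 8 unchanged genes were called. The changed genes lay above the median level, and the simulated spread followed the dispersion trend and not each gene. These counts do not give the power for smaller changes.

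Other genes were named where called, where most abundant in their role, or among the 3 most correlated with a gene, and 1 called gene of the pathway list is not reported here. The genes, lists and classes were chosen with earlier results of these data known. Positions are from GENCODE M21 and promoters from RefSeq. Python 3.11.15, numpy 2.4.6, pandas 2.3.3, scipy 1.17.1 and matplotlib 3.10.9 were used.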

Additional observations from a re-analysis of the deposited data

Results flagged for a closer look

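Of 27 within-mouse log2 ratios of the 9 genes between classes of cells, 1 had a mouse far from the others by Dixon's test at 95%, a test that picks about 1 in 20 groups by chance. Between the *Cd36*/*Fabp4* cells and the other EC, the ratio of *Bmp4* was −0.68 in EC-WT mouse 1 and between −2.08 and −2.04 in the other 3 mice. Without EC-WT mouse 1 the log2 fold change was −2.22 (edgeR adjusted *P* = 1.8e-07).

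Between smooth muscle-like wells and EC, the log2 ratio of *Id1* was below 0 in both EC-KO mice (mean −0.92, with −1.77 and −0.08) and above 0 in both EC-WT mice (1.85 and 0.85). The smooth muscle-like wells held 3, 31, 5 and 3 *Id1* UMIs in these mice, and the difference between the labels was not tested.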

How the results depend on the processing

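Mice carrying the same number did not deviate together from their group means (r = −0.037 over 8128 genes), and with the mouse number as a replicate block 0 genes were called between the labels and *Id1* was at 0.58. Between the labels, 19 genes were called with no filter on low counts, 10 with smooth muscle-like wells included, 1 without *Cd36*/*Fabp4* cells, 6 without cells over 3 times the median UMIs, 1 with cells thinned, and 18 to 73 with a mouse left out, among them 0 to 2 of the 9 genes. Values changed sign as follows, none of them called. Read counts gave *Bmp4* 0.30 and *Bmp6* 0.47. Thinned cells gave *Bmp4* 0.075, *Acvrl1* 0.020 and *Eng* 0.12. *Acvrl1* was at 0.0037 without *Dcn* cells, and *Bmp6* at 0.19 without cells over 3 times the median. EC-KO mouse 2 over EC-WT mouse 1, which share the code taken as a flow cell, gave *Bmp4* 0.13, *Bmp6* 0.14 and *Acvrl1* 0.10. With a mouse left out, *Bmp4* ran from −0.38 to 0.26 (0.05 without EC-KO mouse 2), *Bmp6* from −0.47 to 0.24 (0.05 without EC-WT mouse 1), *Acvrl1* from −0.25 to 0.068, *Eng* from −0.12 to 0.0086, *Id1* from −0.034 to 1.12 and *Epas1* from −0.040 to 0.47. The difference in shares of cells was 4.97 points for *Acvrl1* and −1.63 for *Eng* unthinned, against −0.295 and 2.05 thinned.

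In the smooth muscle-like comparison 117 genes, 2 of the 9 among them, were called with cells thinned, 2 of the 9 with the limit at 0.5%, and 162 to 666 genes (1 to 4 of the 9) with a mouse left out. *Id3* was at −0.35 thinned, and *Id1* ran from −0.46 to 0.32 with a mouse left out. In the *Cd36*/*Fabp4* comparison 97 genes (1 of the 9) were called thinned, 258 with the limit at 0.1%, and 246 to 354 (3 to 4 of the 9) with a mouse left out. *Smad7* was at 0.39 thinned, and *Bmpr2* at 0.010 and *Acvrl1* at 0.16 with the limit at 0.1%. *Acvrl1* ran from −0.34 to 0.11 with a mouse left out (0.01 without EC-KO mouse 1). Between Klf-high and Klf-low cells, 75 genes (1 of the other 8) were called with DESeq2, 14 (0) thinned, 102 with 2 equal sets, 119 without *Dcn* cells, and 54 to 144 (1 to 3) with a mouse left out. *Id3* was at 0.15 thinned and 0.0096 with 2 equal sets, and *Smad6* ran from −0.45 to 0.13 with a mouse left out. Thinning tests fewer genes. The cause of the other changes was not tested. The call of *Bmp4* held in each alternative of the smooth muscle-like and *Cd36*/*Fabp4* comparisons, and that of *Bmp6* in each of the 8 alternatives that gave it a value between Klf-high and Klf-low cells.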
